A study of Mus musculus with 12 samples.

Results

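Endoderm and visceral endoderm genes were followed through a neural differentiation of mouse embryonic stem cells (mESC). They were 10 genes, Afp, Alb, Ttr, Apoa1, Sox17, Gata4, Gata6, Foxa1, Hnf4a and Cer1, found by the gene name that the array files give to a probe, with the brightest probe standing for a gene. The arrays held 39429 probes that were not controls, and 22316 genes were bright enough to be tested between groups, 8 of the 10 among them. A gene was tested if some group had Cy5 well above background on each of its 3 arrays, which Alb and Cer1 did not reach.

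The cells came from a C57BL/6 mESC line that carries eGFP under an actin promoter and was grown on mouse fibroblast feeders, which were removed before differentiation. All groups had passed through 4 days as embryoid bodies and 6 days of selection in ITSFn medium. Step 4 cells, called neural precursors, then spent 5 days in bFGF (10 ng/ml). For step 5 another 7 days followed without bFGF, in ascorbic acid (200 µM) and B27 supplement. Both steps had unsorted control cells and cells selected on magnetic columns for the surface glycan PSA-NCAM, a polysialylated adhesion molecule of young neural cells. Whether the step 5 selection came at the start or the end of its 7 days is not stated in the labels. Each of the 4 groups had 3 biological replicates, and all 12 arrays carried mESC RNA as a common reference in Cy3 beside the sample in Cy5. Values are log2 ratios to mESC unless stated otherwise, so a value of 1 is a level 2 times that of mESC. The number of arrays limits their precision. In this bulk RNA, fewer cells of a type and less RNA per cell cannot be told apart.

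The endoderm is the germ layer that forms the lining of the gut and its glands, and the visceral endoderm is the extraembryonic epithelium that covers the early mouse embryo. Embryoid bodies commonly form an outer layer of such cells. Gata4, Gata6 and Sox17 are transcription factors at the base of the endoderm program, Foxa1 is a forkhead factor that opens chromatin at endoderm genes, and Hnf4a is a nuclear receptor that drives the secretory program of visceral endoderm and liver. Afp, Alb, Ttr and Apoa1 encode secreted carrier proteins, namely alpha-fetoprotein, albumin, the thyroxine and retinol carrier transthyretin, and the main protein of high-density lipoprotein. Cer1 encodes a secreted antagonist of Nodal, Wnt and BMP signals made by anterior visceral endoderm.

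The 10 genes were read by 11 probes of 60 bases, 2 of them for Sox17, and all 12 files gave these probes the same gene names. The probes of Apoa1 and Alb are shown because they set the limits of detection in what follows. Apoa1 was above background in few arrays, and Alb in none, although Alb lies beside Afp. The Apoa1 probe lay on mm9 at chr9:46037921-46037980 and the Alb probe at chr5:90901598-90901657, and each holds 1 reading frame without a stop codon. Both are written as the array files give them. The files name no strand, and the RefSeq table puts both genes on the plus strand.
Apoa1 probe: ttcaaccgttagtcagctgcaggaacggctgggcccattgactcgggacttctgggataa
Alb probe: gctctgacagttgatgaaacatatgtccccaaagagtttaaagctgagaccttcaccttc

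Afp and Alb are neighbours on chromosome 5 with 0 protein-coding genes between them in the RefSeq annotation, and their probes lay 36123 bases apart on mm9. Their promoters are shown because Afp rose far above background in control cells and Alb was at background on every array. The 250 bases before the start of Afp lie at chr5:90490464-90490713 on GRCm38.p6 and those of Alb at chr5:90460620-90460869, both on the plus strand. Both are credited to RefSeq, whose table held promoters of 6 of the 10 genes. Of 3 motifs searched on both strands, capitals mark the only match in these windows, the letters TATAAA of the TATA box in Afp.
Afp promoter: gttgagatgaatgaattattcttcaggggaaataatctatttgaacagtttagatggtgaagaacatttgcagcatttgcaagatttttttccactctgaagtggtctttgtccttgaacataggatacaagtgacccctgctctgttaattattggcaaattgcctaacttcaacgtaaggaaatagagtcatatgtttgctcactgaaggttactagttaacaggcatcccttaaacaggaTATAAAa
Alb promoter: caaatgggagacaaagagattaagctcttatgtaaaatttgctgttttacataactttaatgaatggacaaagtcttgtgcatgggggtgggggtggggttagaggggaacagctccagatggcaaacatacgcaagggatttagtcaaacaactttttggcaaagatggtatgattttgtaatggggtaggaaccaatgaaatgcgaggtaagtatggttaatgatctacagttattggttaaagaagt
The TATA box letters began 7 bases before the annotated start of Afp and were not in the Alb window. Of 32851 promoter windows of this length in the table, 12.4% held them. The GATA letters AGATAA (9.99% of all windows) and the forkhead letters TGTTTAC (3.17%) were in neither window. A match describes letters and is not a measured site.

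Several checks bear on the arrays as a whole. Pou5f1, which marks pluripotent cells, lay between -0.86 and -0.5 in the 6 control samples and between -4.94 and -2.89 in the 6 enriched samples. Ncam1, which encodes the protein that carries the sorted glycan, lay between 1.59 and 3.41 in control and between 3.69 and 4.19 in enriched samples, so the groups stood as their labels say. Cy5 was well above background on 25595 to 29070 probes per array. Replicates 1, 2 and 3 of every group lay on slides 1, 2 and 3. The scan day of slide 2 and the version of the software that placed the spot grid, per the file headers, differed from those of slides 1 and 3. The replicate culture, slide, scan day and software version thus cannot be told apart. The position on a slide followed the group, so position and group cannot be told apart. Arrays of the same number deviated together from their group means, so each result is given within slides as well.

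Afp had the widest range of ratios of the 10 genes. In step 4 control cells its log2 ratio was 0.57, 3.84 and 1.52 on slides 1, 2 and 3, and in step 5 control cells 1.62, 6.70 and 4.03. The raw Cy5 signal in the latter was 327, 17764 and 2124 intensity units against a local background of 52 to 53. In enriched cells the Afp ratio was near 0 except on slide 2. It was 0.03, 0.92 and 0.22 in step 4 and -0.02, 2.34 and 0.04 in step 5. Afp was well above background in the Cy3 mESC channel on 0 of 12 arrays. A ratio near 0 here thus sets background against background. Control values exceeded enriched values on every slide at both steps, while the groups overlapped once slides were mixed. Cy5 was well above background on 3 of 3 control arrays at each step, but on only 1 of 3 enriched arrays at each step, that of slide 2.

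Ttr, which choroid plexus and liver also make in quantity, was well above background in Cy5 on all 12 arrays. Its ratios were 0.32, 3.75 and 2.19 in step 4 control cells and 0.40, 2.74 and 0.83 in step 4 enriched cells. They were 1.75, 4.83 and 1.73 in step 5 control cells and 1.62, 2.28 and 0.73 in step 5 enriched cells. All 12 values were above 0, and slide 2 was the highest of every group.

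Apoa1 was well above background on all 3 step 5 control arrays, on 1 of 3 step 5 enriched arrays and on 0 of 6 arrays of step 4. Its step 5 control ratios were 0.13, 1.44 and 0.65, against -0.05, 0.44 and 0.03 in step 5 enriched cells. In step 4 the control ratios were -0.02, 0.19 and 0.09 and the enriched ratios -0.04, 0.09 and -0.01. The fit gave a step 5 minus step 4 difference in control cells of 0.65 (SE 0.27) and an adjusted p of 0.514 (limma, Benjamini-Hochberg).

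Alb stayed at background throughout. Its raw Cy5 signal was 48 to 64 over all 12 arrays against a local background of 46 to 59, with 0 of 12 arrays well above background in either channel. Cer1 gave 51 to 69 units against 46 to 62, also with 0 of 12 arrays in either channel. These signals give only a limit of detection for the probes used, and neither gene was tested.

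**Figure D1:**
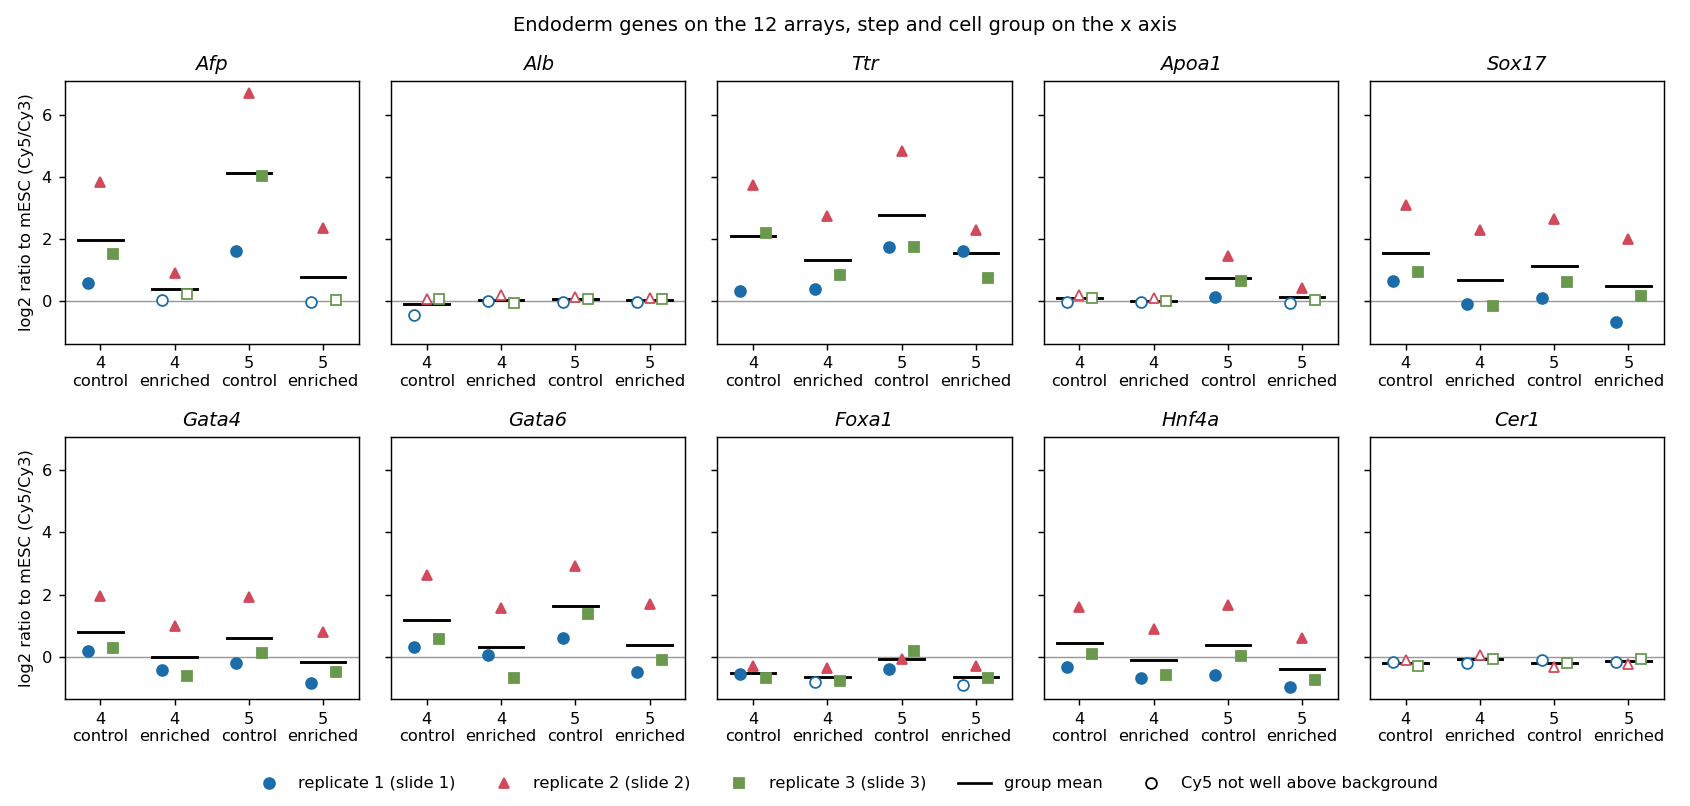
Log2 ratio of Cy5 sample to Cy3 mESC reference (y axis) for the 10 genes in the 4 groups (x axis, step number and cell group), with a point for each array, shaped and coloured by slide, and a bar for the mean of 3. Open points are arrays where Cy5 was not well above background, as for all 12 of Alb and Cer1. Slide 2 (triangles) is the highest of each group for Afp, Ttr, Sox17, Gata4, Gata6 and Hnf4a. It is so for Apoa1 too, where no step 4 array was well above background.

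The transcription factors were measurable in mESC themselves: Sox17, Gata4, Gata6, Foxa1 and Hnf4a were well above background in the Cy3 mESC channel on 12 of 12 arrays. Afp and Apoa1 were so on 0 of 12 and Ttr on 1 of 12.

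Sox17 had ratios of 0.65, 3.08 and 0.95 in step 4 control cells and -0.09, 2.28 and -0.17 in step 4 enriched cells on slides 1, 2 and 3. In step 5 they were 0.10, 2.64 and 0.62 in control and -0.68, 1.99 and 0.17 in enriched cells. These are values of the brighter of its 2 probes, and both followed each other over the 12 arrays (Pearson r = 0.977).

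Gata4 had ratios of 0.19, 1.95 and 0.27 in step 4 control cells against -0.43, 0.99 and -0.61 in step 4 enriched cells. In step 5 the values were -0.20, 1.93 and 0.12 in control against -0.83, 0.78 and -0.49 in enriched cells. On slides 1 and 3 its enriched values lay below the mESC level at both steps, and on slide 2 they lay above it.

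Gata6 ran higher, with ratios of 0.32, 2.62 and 0.56 in step 4 control and 0.59, 2.93 and 1.36 in step 5 control cells. Its enriched values were 0.05, 1.58 and -0.67 in step 4 and -0.48, 1.70 and -0.10 in step 5. Control cells were above mESC on all 6 arrays.

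Hnf4a had ratios of -0.32, 1.59 and 0.10 in step 4 control and -0.68, 0.90 and -0.58 in step 4 enriched cells. The step 5 values were -0.58, 1.68 and 0.02 in control and -0.98, 0.59 and -0.75 in enriched cells. The order was again control above enriched on each slide.

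Foxa1 differed from the other factors in lying at or below the mESC level on 11 of 12 arrays. Its ratios were -0.56, -0.31 and -0.67 in step 4 control, -0.80, -0.35 and -0.78 in step 4 enriched, -0.39, -0.06 and 0.19 in step 5 control and -0.90, -0.31 and -0.70 in step 5 enriched cells. Slide 2 moved little here.

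Enriched cells had lower levels of these genes than control cells of the same slide. At step 4 the values of all 8 tested genes were below 0 in the mean, and on 3 of 3 slides for each of them but Ttr, which was lower on 2 of 3. At step 5 all 8 were lower on 3 of 3 slides. With no allowance for slides, 0 of 8 passed the test at step 4, where 31.1% of all 22316 genes did and 16.2% were lower. At step 5, 1 of 8 passed, where 40.5% of all genes did and 20.2% were lower. The median difference of the 8 was -0.79 at step 4 and -0.78 at step 5, against 0.01 and -0.01 over all genes. With the slide as a block, 4 of 8 were lower at step 4 (39.3% of all genes passed, 19.4% lower and 19.8% higher) and 7 of 8 at step 5 (46.9% passed, 23.6% lower and 23.3% higher). At step 4, where 4 of 8 is above the 19.4%, the median of the 8 on the scanner's own ratio was -1.19, and at step 5 it was -1.55.

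Afp fell by 3.33 at step 5 (SE 1.21, adjusted p = 0.0485, limma), the 1 member to pass without the block. Only 1 of the 3 step 5 enriched arrays measured it well above background, so no fold is given. Its differences on slides 1, 2 and 3 were -1.64, -4.36 and -3.99, and the blocked fit gave an adjusted p of 0.00288. The unblocked call was lost when any of 8 of the 12 arrays was left out (adjusted p over all alternatives 0.000714 to 0.164). Those were step 4 control replicate 3, all 3 step 4 enriched replicates, step 5 control replicates 2 and 3, and step 5 enriched replicates 1 and 3. Over the 12 cases the difference ranged from -4.58 to -2.04, and it was -2.04 without step 5 control replicate 2. On the scanner's own ratio, to which no offset is added, it was -5.59. The blocked call held in all 12 cases. At step 4 the Afp difference was -1.59 (slides -0.54, -2.92 and -1.3) with an adjusted p of 0.35, or 0.0763 with the block. With the scanner's ratio and the block it was -3.38 and passed (adjusted p = 0.00849).

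Gata4 was lower by nearly the same amount at both steps, with differences of -0.62, -0.96 and -0.88 at step 4 and -0.64, -1.15 and -0.61 at step 5. With the block these averaged -0.82 (SE 0.14, adjusted p = 0.00318) and -0.80 (SE 0.14, adjusted p = 0.00237). Without it the adjusted p was 0.412 and 0.399.

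Sox17 fell by 0.89 at step 4 (SE 0.15, adjusted p = 0.00299 with the block, 0.527 without) and by 0.63 at step 5 (SE 0.15, adjusted p = 0.0102 with the block, 0.645 without). Its differences on the slides were -0.75, -0.80 and -1.12 at step 4 and -0.78, -0.66 and -0.45 at step 5. The other Sox17 probe gave smaller differences, of -0.35, -0.04 and -0.61 at step 4 and -0.36, -0.18 and -0.16 at step 5. Both probes were thus lower in enriched cells on every slide but disagree in size, and the mean of both, unblocked, was -0.61 and -0.43.

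Gata6 fell by 0.84 at step 4 (SE 0.23, adjusted p = 0.0213 with the block, 0.493 without) and by 1.25 at step 5 (SE 0.23, adjusted p = 0.0027 with the block, 0.274 without). Its differences were -0.27, -1.04 and -1.23 at step 4 and -1.07, -1.23 and -1.46 at step 5.

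Hnf4a fell by 0.58 at step 4 (SE 0.14, adjusted p = 0.0114 with the block, 0.576 without) and by 0.75 at step 5 (SE 0.14, adjusted p = 0.00243 with the block, 0.432 without). Its slides gave -0.35, -0.69 and -0.68 at step 4 and -0.40, -1.08 and -0.77 at step 5.

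Foxa1 and Apoa1 passed at step 5 with the block and missed the threshold without it. Foxa1 fell by 0.55 (SE 0.15, adjusted p = 0.0163 with the block, 0.0519 without), with slides at -0.51, -0.24 and -0.89. Unblocked it passed with an offset of 16 (adjusted p = 0.0489), with array weights (0.0407) and without step 4 enriched replicate 2 (0.0472), step 5 control replicate 1 (0.0287) or step 5 enriched replicate 2 (0.0251). Apoa1 fell by 0.60 (SE 0.20, adjusted p = 0.0378 with the block, 0.101 without), with slides at -0.18, -1 and -0.62, and was well above background on 1 of 3 step 5 enriched arrays. Unblocked it passed without step 5 control replicate 1 (-0.91, adjusted p = 0.0129). Their step 4 differences were -0.13 (SE 0.15) for Foxa1 and -0.07 (SE 0.20) for Apoa1 with the block. Ttr did not pass at either step, with -0.76 at step 4 (slides 0.08, -1.01 and -1.36) and -1.22 at step 5 (slides -0.13, -2.55 and -0.99) and blocked adjusted p values of 0.28 and 0.0842.

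Leaving out each array in turn kept the blocked calls of Gata4 and Sox17 at step 4, and of Afp, Gata4, Gata6, Hnf4a and Sox17 at step 5, in all 12 cases. At step 4 that of Gata6 was lost without control replicate 2 (adjusted p = 0.0848), control replicate 3 (0.0603), enriched replicate 2 (0.0771) or enriched replicate 3 (0.0784), and that of Hnf4a without enriched replicate 2 (0.0514). The count at step 4 was then 2 of 8 without enriched replicate 2. The share of all genes in that case is not given, so this count describes the calls alone. At step 5 the blocked call of Foxa1 was lost without step 5 enriched replicate 1 (adjusted p = 0.0614) or 3 (0.0582). That of Apoa1 was lost in 7 of 12 cases, with an adjusted p of up to 0.116. These were the cases without step 4 control replicate 3, step 4 enriched replicate 3, step 5 control replicates 2 and 3 and each of the step 5 enriched replicates. On slides 1 and 3 alone, blocked, 2 of 8 were lower at step 4 and 5 of 8 at step 5. In that fit 3 of 8 had an unadjusted p under 0.05 (limma) at step 4, where 8166 of all 22316 genes did. At step 5 it was 7 of 8 and 10224 of all genes. With the block on the scanner's ratio, Gata6 no longer passed at step 4 (adjusted p = 0.0629) nor Sox17 at step 5 (adjusted p = 0.0662).

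**Figure D2:**
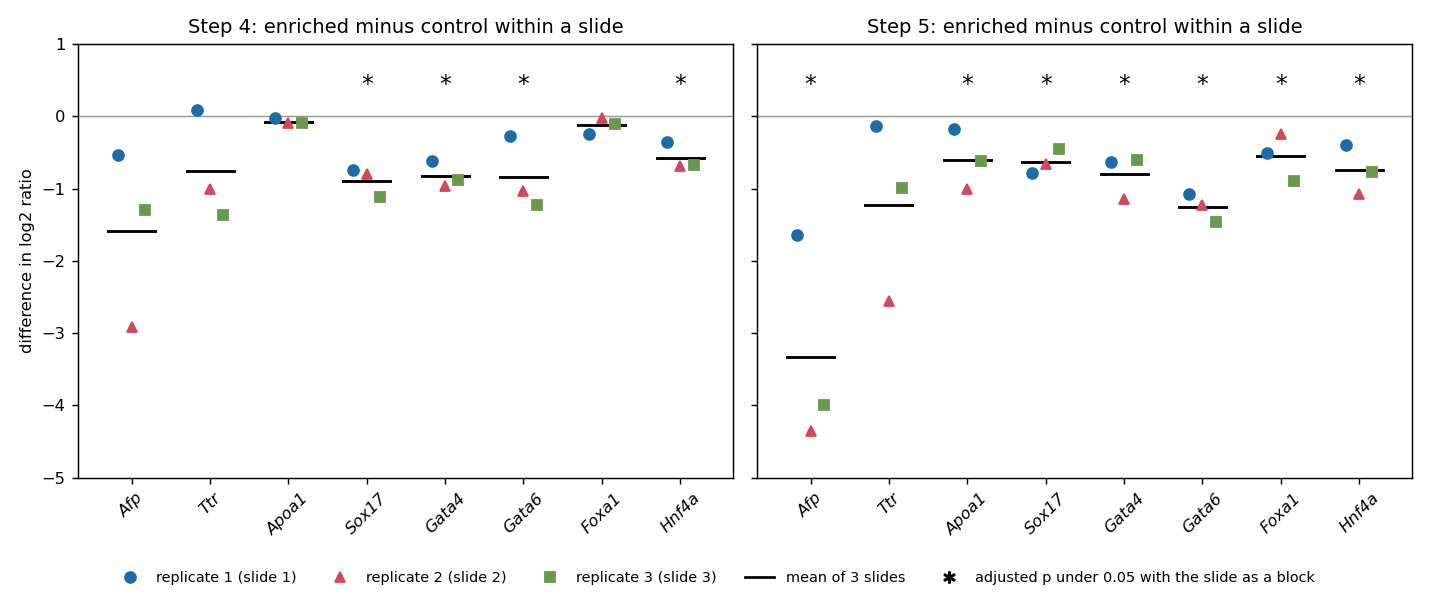
Enriched minus control difference in log2 ratio within each slide (y axis) for the 8 tested genes (x axis) at step 4 (left) and step 5 (right), with a point per slide and a bar for the mean of 3. A star marks an adjusted p under 0.05 with the slide as a block, as for 4 genes at step 4 and 7 at step 5. Only Ttr on slide 1 at step 4 lies above 0.

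Pluripotent cell markers and neural markers also differed between enriched and control cells, and their part in the result was not tested. Without the block, 31.1% of all genes passed at step 4 and 40.5% at step 5, with 16.2% and 20.2% lower. With it, 19.4% and 23.6% were lower and 19.8% and 23.3% higher. All 8 of 8 pluripotent cell markers were lower in enriched cells at both steps, with Nanog at -4.54 (SE 0.76, adjusted p = 0.00212) in step 4 and -4.08 (SE 0.76, adjusted p = 0.00218) in step 5 without the block. The summed Cy5 level of that list was 146417 to 161332 in step 4 control and 14259 to 27334 in step 4 enriched samples, and 165967 to 180628 and 18253 to 43023 in step 5. Neuron markers rose for 1 of 8 genes at step 4 and 8 of 8 at step 5, or 5 and 8 of 8 with the block, with Dcx at 3.40 (SE 0.82, adjusted p = 0.00832) in step 5. The 1 of 8 at step 4 is not above the share of all genes that passed. The summed level of the neuron markers was 8467 to 35742 in step 4 control and 24603 to 103624 in step 4 enriched samples, and 7749 to 21496 and 60396 to 80828 in step 5. Radial glia markers were higher for 4 of 8 genes at step 4 and 5 of 8 at step 5, or 6 and 5 with the block, at summed levels of 53534 to 137246 in control and 267289 to 375305 in enriched samples of step 4 and 46287 to 86336 and 169470 to 278174 in step 5.

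Further lists of endoderm genes are read against the shares of all genes that were lower, 16.2% at step 4 and 20.2% at step 5 without the block and 19.4% and 23.6% with it. Of 13 further endoderm transcription factors 9 were tested, and 2 were lower at each step without the block, 3 and 4 with it, and 0 higher. The 2 that passed at each step without the block were Hhex, a homeobox factor of liver and anterior endoderm, and Eomes, a T-box factor needed for definitive endoderm. Hhex fell by 1.81 (SE 0.40, adjusted p = 0.00768) and by 2.48 (SE 0.40, adjusted p = 0.000999), and Eomes by 1.33 (SE 0.29, adjusted p = 0.00801) and by 1.86 (SE 0.29, adjusted p = 0.000941). Foxa2, the close relative of Foxa1, passed with the block alone, at -0.93 (SE 0.31, adjusted p = 0.0409) and -1.12 (SE 0.31, adjusted p = 0.0163). Gsc, a homeobox factor of anterior endoderm and organiser, passed at step 5 with the block alone, at -0.49 (SE 0.15, adjusted p = 0.0226). The medians of the list were -0.32 and -0.49. Over the arrays the ratio to mESC was -3.17 to -0.05 for Hhex, -2.35 to 0.47 for Eomes and -1.38 to -0.62 for Gsc. That of Foxa2 was 0.45 to 4.76. The part of pluripotent cells in these differences was not tested.

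Of 20 further secreted and lipid transport genes 15 were tested. At step 4, 6 were lower and 0 higher without the block (9 and 0 with it), and at step 5, 4 were lower and 1 higher (7 and 1 with it), with medians of -1.26 and -1.24. Apoc1, a small apolipoprotein, fell by 2.45 at step 4 (SE 0.24, adjusted p = 0.000165) and by 2.02 at step 5 (SE 0.24, adjusted p = 0.000221). Ahsg, a fetal plasma glycoprotein, fell by 1.69 (SE 0.27, adjusted p = 0.00178) and by 1.41 (SE 0.27, adjusted p = 0.00265). Apoe, which astrocytes and radial glia also make, fell by 1.61 at step 4 (SE 0.39, adjusted p = 0.0113) but rose by 2.49 at step 5 (SE 0.39, adjusted p = 0.000859). Over the arrays the ratio to mESC was -3.43 to -0.28 for Apoc1, -1.79 to 0.51 for Ahsg and -3.21 to 2.94 for Apoe. The part of pluripotent cells here was not tested either.

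Of 10 uptake and signalling genes of visceral endoderm, all tested, 1 was lower at each step without the block and 2 and 3 with it. Vil1, an actin-bundling protein of absorptive epithelium, was lower by both fits, at -0.95 in step 4 (SE 0.12, adjusted p = 0.000495) and -1.21 in step 5 (SE 0.12, adjusted p = 0.000101). Its ratio to mESC was -2.07 to -0.74 over the arrays. The 8 parietal endoderm matrix genes gave 0 lower and 1 higher at each step without the block, the higher being Plat, a secreted protease, at 0.46 (SE 0.15, adjusted p = 0.044) and 0.45 (SE 0.15, adjusted p = 0.038). With the block the counts were 0 lower and 1 higher at step 4 and 1 and 1 at step 5, where the lower gene was Thbd, the thrombin receptor thrombomodulin, at -1.16 (SE 0.42, adjusted p = 0.0479). Of 10 gut epithelium genes 3 were lower and 1 higher at each step without the block, and 8 were lower at step 5 with it. The lower ones without the block were Cdh1, Epcam and Cldn7, epithelial adhesion and junction genes that mESC also express. The higher one was Cxcr4, a chemokine receptor that neural precursors also express. With the block the 8 lower genes at step 5 included Krt18, at -2.72 (SE 0.61, adjusted p = 0.00677 in limma). Its ratio to mESC was -1.91 to 5.35 over the arrays.

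**Figure D3:**
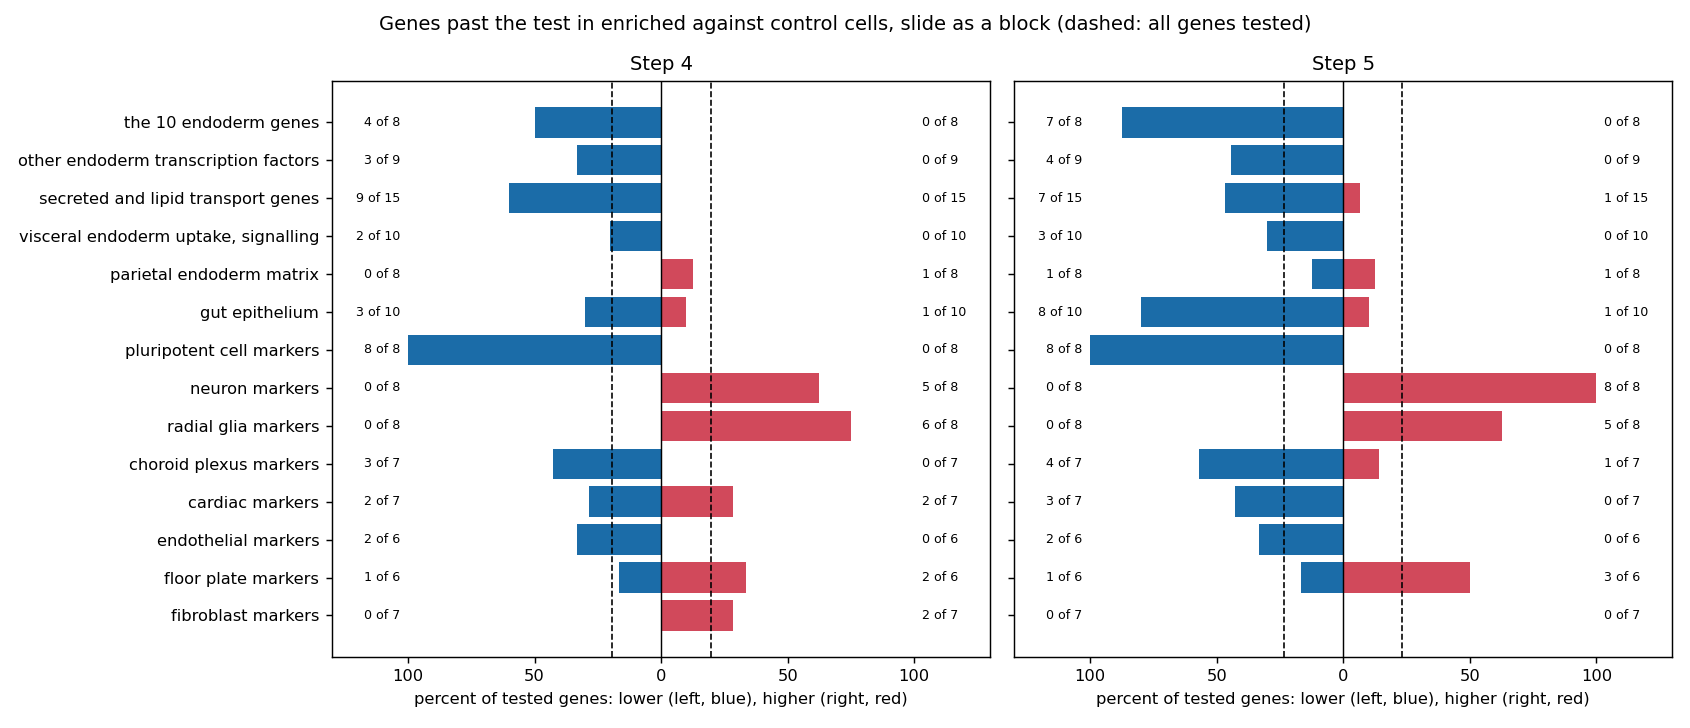
Percent of the tested genes of each list that were lower (left, blue) or higher (right, red) in enriched than in control cells at adjusted p under 0.05 with the slide as a block (x axis), for the 10 endoderm genes and 13 other lists (y axis), with counts at the margins. Dashed lines are the shares over all 22316 genes. The endoderm genes stand at 4 of 8 lower at step 4 and 7 of 8 at step 5, with 0 higher at both.

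Between step 4 and step 5 the members did not pass the test in either kind of cell. In control cells 0 of 8 passed and 0% of all 22316 genes did, while 1917 genes and 1 member had an unadjusted p under 0.05 in limma. Afp had the largest difference, 2.14 (SE 1.21, adjusted p = 0.733), and was higher at step 5 on each slide, by 1.05, 2.86 and 2.51. Gata6, Foxa1 and Apoa1 were also higher at step 5 on 3 of 3 slides, and Gata4 and Sox17 lower on 3 of 3. The adjusted p of the 8 genes was 0.514 to 0.994 without the block and 0.231 to 0.881 with it. In enriched cells 0 of 8 passed, where 6.42% of all genes did, with differences from -0.26 for Hnf4a to 0.39 for Afp. The enrichment effect did not pass a test of its difference between steps for any of the 8 genes (adjusted p from 0.865 to 0.999, and 0.536 to 0.988 with the block), nor did any of the 22316 genes, of which 1574 had an unadjusted p under 0.05. With the block, 1 gene of the 22316 (0.00448%) passed between steps in control cells, 10.9% did in enriched cells, and 0 members did in either.

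Against mESC, step 5 control cells were the group with the most members that passed the test above the reference. There Afp stood at 4.12 ± 2.54 (SD, n = 3), Ttr at 2.77 ± 1.79 (SD, n = 3) and Apoa1 at 0.74 ± 0.66 (SD, n = 3). These 3 of 8 passed the test (limma, adjusted p = 0.00301, 0.0109 and 0.00968), a smaller share than the 44.2% of all genes. The median ratio of the 8 was 0.93 here and 0.98 in step 4 control cells. Because mESC gave no Afp or Apoa1 signal well above background, their folds are bounds on the group mean, at least 17.3-fold for Afp and at least 1.67-fold for Apoa1. Single arrays fell below them, with log2 ratios on slide 1 of 1.62 for Afp and 0.13 for Apoa1. Such bounds set the brighter group's mean against the higher of the dim probe's own level and the lowest level well above background on each array, per channel after loess and Aquantile scaling, and stay open to dye bias without dye swaps. Without step 5 control replicate 2 the Afp ratio was 2.82 instead of 4.12 and still passed. In that case the adjusted p was 0.0903 for Ttr (2.77 became 1.74) and 0.0563 for Apoa1 (0.74 became 0.39). Gata6 stood at 1.63 ± 1.19 (SD, n = 3) and had an adjusted p of 0.0502. In step 4 control cells 2 of 8 passed, also a smaller share than the 38.4% of all genes. These were Ttr, higher at 2.09 ± 1.72 (SD, n = 3, adjusted p = 0.0444 in limma), at least 4.25-fold in the group mean, and Foxa1, lower at -0.52 ± 0.18 (SD, n = 3, adjusted p = 0.0163). On slide 1 the Ttr log2 ratio was 0.32, below that bound. The Ttr call was lost without step 4 control replicates 2 (1.25, adjusted p = 0.287) or 3, step 4 enriched replicate 3 or any step 5 enriched replicate, and the Foxa1 call without step 4 control replicates 1 (adjusted p = 0.0715) or 3 (0.106).

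In enriched cells only Foxa1 passed, lower than mESC at -0.64 ± 0.26 (SD, n = 3, adjusted p = 0.00231 in limma) in step 4 and at -0.64 ± 0.30 (SD, n = 3, adjusted p = 0.00222) in step 5. All genes passed at 66.6% and 71.2% there, so 1 of 8 is a smaller share than the background. Foxa1 was well above background in Cy5 on 2 of 3 arrays of each enriched group. Taking the spread between slides out of the error raised the count to 7 of 8 in step 4 control (45.6% of all genes), 3 of 8 in step 4 enriched (70.7%), 7 of 8 in step 5 control (51.1%) and 4 of 8 in step 5 enriched cells (74.6%). The blocked error leaves out how far replicate cultures differ. In step 4 control cells Sox17, at 1.56 ± 1.32 (SD, n = 3), had an adjusted p of 0.0983 without and 2e-05 with the block. Without slide 2 it was 0.8, with an adjusted p of 0.0397 and no block.

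Values also differed between slides. The contrast of slide 2 with the mean of slides 1 and 3 was chosen after the data were seen. Slide 2 holds a single replicate of each group. The errors and adjusted p values of this contrast measure the spread of the groups within slides. They leave out how far slides or replicate cultures differ. With group and slide in the fit, 6 of 8 members were higher on slide 2, where 1.75% of all 22316 genes passed and 1.47% were higher, and the median of the 8 was 1.83 against -0.01 over all genes. Sox17 was 4.93-fold higher (log2 2.30, SE 0.12, adjusted p = 0.000417), Gata6 4.01-fold (2.00, SE 0.18, adjusted p = 0.00263), and Gata4 and Hnf4a 3.16-fold each (1.66, with SE 0.11 and 0.10 and an adjusted p of 0.000727 for both). Afp was higher by 2.45 (SE 0.47, adjusted p = 0.0452) and Ttr by 2.21 (SE 0.39, adjusted p = 0.0362), and each of these 2 calls was lost when any of 9 of the 12 arrays was left out. Afp kept it only without step 4 enriched replicates 1 or 2 or step 5 control replicate 1, and Ttr only without step 4 enriched replicate 1 or step 5 enriched replicates 1 or 2. The adjusted p over all alternatives reached 0.197 for Afp, without step 4 control replicate 2, and 0.17 for Ttr, on the scanner's ratio. Apoa1 (0.44) and Foxa1 (0.32) did not pass.

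The Cy3 channel of the same arrays carried the common mESC reference on each slide. Within the groups the slide 2 ratio of Sox17 exceeded the mean of the other slides by 2.24 to 2.41, while the log2 level of its Cy3 mESC channel differed by 0.12 to 0.27. For Hnf4a the ratio differed by 1.46 to 1.96 and the Cy3 level by 0.01 to 0.14, and for Gata6 by 1.89 to 2.18 and by 0.18 to 0.29. Gata4 had the widest shift of the mESC channel, 0.27 to 0.85 beside a ratio difference of 1.44 to 1.97. In each group the Cy3 level of these 4 factors moved less than the ratio did. Their raw Cy3 signals were dim, at 55 to 155 units, and the offset of 50 damps changes in so dim a channel. The comparison therefore cannot tell slide from replicate culture, and the source of the slide difference was not tested. Enriched step 4 cells of slide 2 had a higher Sox17 ratio (2.28) than control step 4 cells of slides 1 and 3 (0.65 and 0.95).

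**Figure D4:**
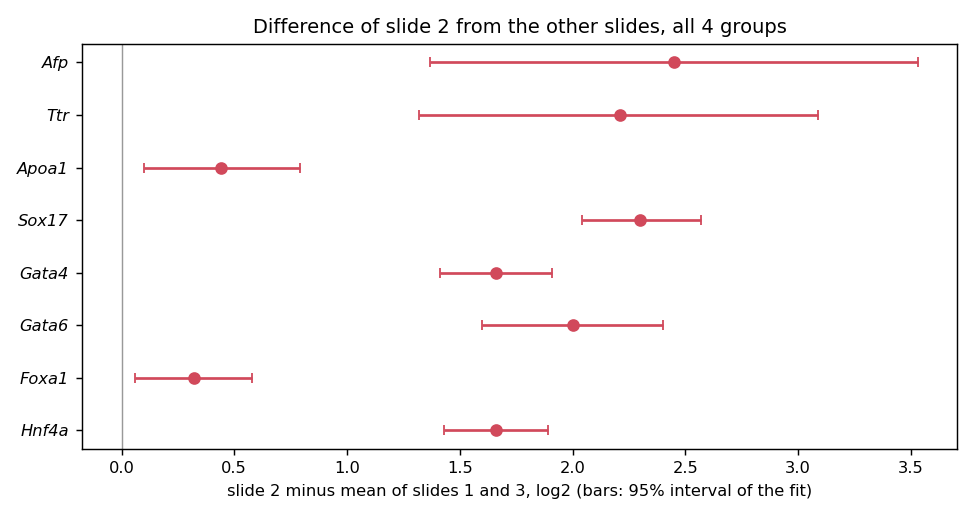
Difference of slide 2 from the mean of slides 1 and 3 in log2 ratio (x axis, with the 95% interval of the fit as bars) for the 8 tested genes (y axis), over all 4 groups. Sox17, Afp, Ttr, Gata6, Gata4 and Hnf4a lie between 1.66 and 2.45, and Apoa1 and Foxa1 at 0.44 and 0.32. The bars leave out how far slides or replicate cultures differ.

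Other endoderm lists held some genes with the same slide pattern. Foxa2 was higher on slide 2 by 2.45 (SE 0.23, adjusted p = 0.00403), the 1 of 9 tested transcription factors that passed. Among the secreted genes 2 of 15 were higher, Rbp4, the plasma retinol carrier, by 3.42 (SE 0.28, adjusted p = 0.00205) and F2, the prothrombin gene, by 1.5 (SE 0.16, adjusted p = 0.00688). Lama1, Col4a1 and Col4a2, basement membrane genes, were the 3 of 8 parietal endoderm genes higher on slide 2, and Lama1 was so by 2.97 (SE 0.28, adjusted p = 0.00403). Of the uptake and signalling genes 3 of 10 were higher, the endocytic genes Dab2 and Cubn and the Wnt antagonist Dkk1, and of the gut epithelium genes 4 of 10. Of pluripotent cell, neuron and fibroblast markers 0 were called either way in limma, with medians of 0.82, -0.71 and -0.53, and 1 of 8 radial glia markers, Nes, was lower.

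Over the 12 arrays Pearson r was 0.988 between Gata4 and Hnf4a, 0.979 between Sox17 and Gata4 and 0.932 between Sox17 and Gata6. Foxa1 had an r of 0.602 with Sox17, 0.635 with Gata4 and 0.645 with Hnf4a, and the lowest r among the 8 genes was 0.541, between Apoa1 and Sox17. The 12 arrays share slides and the mESC reference, so these values describe the arrays and carry no test. With each slide's mean removed, r was 0.974 between Gata4 and Hnf4a and 0.169 between Apoa1 and Sox17. On the ratios with slide means kept, the 3 genes nearest to Hnf4a were Foxa2 (0.991), Gata4 (0.988) and Slco2a1 (0.983), and those nearest to Gata4 were Hnf4a, Foxa2 (0.983) and Sox17. Sox17 was followed by Gata4, Hnf4a (0.978) and Lama1 (0.963), and Gata6 by Smim6 (0.974), Srgn (0.973) and Gkn2 (0.972).

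The secreted genes had other neighbours. Afp was nearest to Mucl3 (0.971), Muc13 (0.961) and Ssxb1 (0.958), and Apoa1 to Afp (0.92), Fam151a (0.907) and Smg1 (0.896). Ttr was nearest to Clic6 (0.94), a choroid plexus gene, then 1810013L24Rik (0.933) and Hkdc1 (0.932), and Foxa1 to Gm5751 (0.926), Tnfaip2 (0.925) and B4galt5 (0.922). The genes nearest to the mean of the 8 standardised profiles were Gkn2 (0.985), Hkdc1 (0.973), Mucl3 (0.972), Smim6 (0.971), Srgn (0.968), Tmprss2 (0.967), Helz2 (0.965) and Foxa2 (0.965). With slide means removed the 8 nearest were other genes, led by Sfi1 and Gm2012 (0.987 each).

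Other sources of Ttr in these cultures were checked by markers. Of 8 choroid plexus markers 7 were tested, and 2 were lower and 0 higher in enriched cells at step 4 and 4 lower and 1 higher at step 5 (3 and 0, and 4 and 1, with the block). Of all genes 16.2% and 20.2% were lower without the block, and 19.4% and 23.6% with it. Folr1 fell by 1.68 and by 2.19 (SE 0.14 each, adjusted p = 8.16e-05 and 4.82e-05), while Enpp2, a secreted phospholipase, rose by 2.30 at step 5 (SE 0.56, adjusted p = 0.00848). Over the arrays the ratio to mESC was -2.22 to 0.25 for Folr1 and -2.83 to -0.87 for Slc4a5, which was also lower at both steps. It was 0.65 to 4.41 for Aqp1, lower at step 5, and 1.62 to 5.51 for Enpp2. The part of pluripotent cells in these differences was not tested. Clic6 was higher on slide 2 by 1.95 (SE 0.28, adjusted p = 0.0211). The summed Cy5 level of this list was 4612 to 7125 in step 4 control, 2635 to 5021 in step 4 enriched, 6854 to 10366 in step 5 control and 5793 to 12490 in step 5 enriched samples. The part of such cells in the Ttr signal was not tested.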

How the data were processed

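RNA of 12 samples was measured on 2-colour Agilent mouse arrays, with 100 ng of RNA per sample, Cy5 for the sample and Cy3 for the mESC reference, and 0 dye swaps, per the labels' protocols. The scanner files hold mean signals and local background medians as intensity per channel, per the file headers. They also hold a log10 ratio of processed signals, per the file headers. The deposited value table is in log2 and matched that scanner ratio to within 0.001 on 99.3 to 99.5% of probes per array. Its column medians were 0.

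Mean signals were corrected by normexp (offset 50), loess-normalised within arrays and averaged per probe in R 4.3.3 with limma 3.58.1. Control spots and 128 to 298 spots marked as outliers per array were left out. Probes were named through RefSeq accessions and symbols. The brightest probe whose Cy5 was well above background (over 50% of its spots) on all 3 arrays of a group stood for a gene. A linear model on the 4 group means with eBayes tested 22316 genes, two-sided, with Benjamini-Hochberg adjustment over all of them and a threshold of 0.05. Intervals are 95% intervals of the fit. The offset damps ratios of dim probes. The code was tested on simulated data. The labels call the replicates biological and name no pairing. Each array's departure from its group mean was correlated over genes with that of arrays bearing its number. Between control and enriched arrays the correlation was 0.13 to 0.644 at step 4 and 0.188 to 0.361 at step 5. Across steps, control arrays gave 0.463 to 0.747 and enriched arrays 0.341 to 0.413. Arrays of the same number also share slide, scan day and software version, so these values cannot show that cultures were paired. The replicate number, which is also the slide, is printed as a block beside results whose call it changes.

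The 10 genes and the other lists were chosen with earlier results of these data known. In the list of further transcription factors 1 gene is not reported here. Named genes are the 10 in each comparison, and from other lists up to 4 past the threshold with the largest change. Pou5f1 and Ncam1 checked the labels. Genes with the most similar pattern were ranked by Pearson r over 12 arrays, the top 3 per member and the top 8 for their mean. Alternatives were the offset, the scanner ratio, the deposited table, 2 other scalings, the filters, the probe rule, the block, the groups fitted, array weights and leaving out arrays or slide 2.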

Additional observations from a re-analysis of the deposited data

How the results depend on the processing

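Of 862 alternative values of single genes, 741 kept their direction and side of the threshold, 71 passed it anew, 46 no longer passed and 4 changed sign. The sign changes were Foxa1 at step 4, at 0.01 with array weights, Sox17 at step 5, at 0.00 with array weights, and 2 differences with arrays left out, which ranged from -1.38 to 0.13 for Sox17 at step 5 and from -1.65 to 0.07 for Ttr at step 4. Of the counts of members past the test, enriched against control was 0 at step 4, and 4 with the replicate block, 4 with the block on the scanner ratio, 2 with the block on slides 1 and 3, and 1 without slide 2. At step 5 it was 1, and 7, 6, 5 and 3 under the same settings in that order. It was 2 with an offset of 16 or array weights, 0 with no filter on dim probes, with Cy5 well above background on all 12 arrays or with only the groups compared, and 0 to 3 with an array left out. Shares of all genes past the adjusted threshold are given above only for the fits of all arrays with and without the block. Here and against mESC, counts under other settings show how calls moved and are not set against all genes.

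Against mESC the count in step 4 control cells was 2, and 7 with the block, 6 with the block on the scanner ratio, 1 with either filter or only the groups compared, and 0 to 3 with an array left out. In step 4 enriched cells it was 1, and 3 with the block (5 on the scanner ratio, 3 on slides 1 and 3), 2 with the scanner ratio, the deposited table or array weights, 0 with Cy5 well above background on all 12 arrays and 3 without slide 2. In step 5 control cells it was 3, and 7 with the block, 6 with the block on the scanner ratio, 1 with only the groups compared and 1 to 4 with an array left out. In step 5 enriched cells it was 1, and 4 with the block (5 on the scanner ratio, 3 on slides 1 and 3), 2 with an offset of 16, the scanner ratio, the deposited table or only the groups compared, 0 with Cy5 well above background on all 12 arrays, 4 without slide 2 and 1 to 2 with an array left out. The blocked count at step 4 was 2 to 5 with an array left out. The filter that needs Cy5 on all 12 arrays leaves Afp, Apoa1 and Foxa1 untested. The cause of the other changes was not tested. All-gene counts with the block were 8767 and 10469 against 6950 and 9027 without it for enriched against control at step 4 and step 5, and 2440 against 1433 for enriched cells between steps. No block changed a call between steps among the members. Signals near background limit Apoa1 and Foxa1, and Alb and Cer1 gave none above it. The alternatives with the block on part of the data, and those of the slide contrast, were added after seeing the data.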
